A study of Homo sapiens with 29 samples.

Results

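BPK29 was compared with its solvent DMSO in H460 cells by RNA sequencing, in 3 libraries of each, which are 6 of the 29 samples of the series. The samples are defined by their labels: H460 cells, plated overnight in RPMI with 10% FBS, received 30 µM of BPK29 or DMSO for 12 h, and polyadenylated RNA was sequenced. H460 is an established line of non-small cell lung cancer, known for a mutated KEAP1, the adaptor that marks the transcription factor NRF2 (NFE2L2) for degradation. Cells given 30 µM of BPK9, a second compound, for 12 h (3 libraries) serve as a further reference, and H460 cells with a short hairpin RNA against NR0B1 or against GFP, sampled at 72 h (3 libraries each), are used for ratios only. The other samples of the series, knockdowns in H460 and H2122 cells and a chromatin immunoprecipitation with its input, are not used here beyond the shared fit of the H460 knockdowns. All results come from 1 cell line at 1 dose and 1 time, and the labels do not say whether the 3 libraries of a group came from separate cultures, so each p-value reflects the spread among the libraries alone, which may be technical.

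NR0B1 (DAX1) is an orphan nuclear receptor best known as a corepressor in steroid-producing tissues, and it is also present in some lung cancer lines in which NRF2 is active. BPK29 is known from the study's published work as a ligand that reacts with a cysteine of NR0B1, and the labels name both compounds only by code. KEAP1 is itself a sensor that reacts through cysteines, and oxidative stress, misfolded proteins and lack of amino acids each have a known set of target genes, which are described below beside those of growth and signalling.

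The deposited table gives FPKM, read fragments scaled to gene length and to sequencing depth. The gene lengths behind the compound columns do not match those of the knockdown columns, so only ratios of 1 gene between libraries are read here. The steps between low FPKM values show the worth of a single read, which gave back whole reads for 11444 of the 11461 tested genes (tolerance 0.02 reads), with 19108611 to 24866717 reads per compound library. Values per library are given below as normalised reads, meaning the FPKM of a gene times its own constant number of reads per FPKM. They keep the authors' depth scaling, and they are not to be compared between genes. Fold changes are differences of log2(FPKM + 1) from limma with their standard error (SE), which understate the change of genes with low FPKM. Genes with an adjusted p (Benjamini-Hochberg, over all 11461 genes) under 0.05 are described as called. Genes named below as largest changes or list members were mostly picked from called genes whose DMSO and BPK29 libraries do not overlap. That separation is therefore fixed by the choice.

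No library stood apart. Pairs of replicate libraries differed by 1.33 to 1.93 times counting noise with DMSO and by 1.27 to 1.55 times with BPK29 (chi-square per degree of freedom). Of 9 genes listed for this lung line, 8 had at least 1 FPKM in all 6 libraries, among them the keratins KRT8 and KRT18, NR0B1 and the NRF2 targets AKR1B10 and NQO1; EPCAM, an epithelial surface protein, did not pass the filter. Of 13 leukocyte markers, 2 (CD14 and CD68) had at least 1 FPKM in all 3 libraries of either group. The summed normalised reads of the 5 with recovered reads were 1417 to 1565 with DMSO and 1501 to 1599 with BPK29. CD3E, CD4 and MS4A1 were listed at 0 in all 6 libraries, as were PDGFRA of fibroblasts and PECAM1 and CDH5 of endothelial cells. In contrast, 5 of the 12 fibroblast and endothelial markers had at least 1 FPKM in all 6 libraries: COL1A1, COL3A1, DCN, LUM and ACTA2. Reads were recovered for 8 of 12 fibroblast and endothelial markers, 15 of 18 epithelial markers and 13 of 15 neuroendocrine markers. Summed normalised reads, which weigh most on the genes with most reads, were 2612 to 2766 with DMSO and 1900.0 to 1911 with BPK29 for the first list. For the epithelial list they were 78288 to 79338 and 65498 to 66247, and for the neuroendocrine list 2770.4 to 2861 and 2491 to 2637. The part of these shifts in other results was not tested. In bulk RNA, fewer cells in a given state and less RNA per cell cannot be told apart.

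BPK29 changed a large share of the transcriptome by small amounts. In limma, 2418 genes were called higher (21.1% of 11461) and 3359 lower (29.3%). After rescaling every library to a common FPKM total the counts were 3851 higher and 2201 lower, with median-ratio scaling 2790 and 2980, and on recovered reads (limma voom) 3071 and 3150. The side with more calls thus changed with the scaling. Counts of list members below are to be read beside 21.1% higher and 29.3% lower among all tested genes. Those on the common total are to be read beside 3851 higher and 2201 lower of 11464 genes. Whether a list differs from all genes was not tested. The middle 95% of all genes lay between -0.49 and 0.43 on the log2 scale. Changes of at least 1.5 fold were called for 96 higher genes (0.838%) and 175 lower genes (1.53%), against 160 and 132 on the common total, 107 and 160 with median-ratio scaling and 233 and 263 on recovered reads. Of these 271 genes, 268 have recovered reads, with a median of 249 reads per library, and 32 rest on fewer than 20 reads per library.

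**Figure D1:**
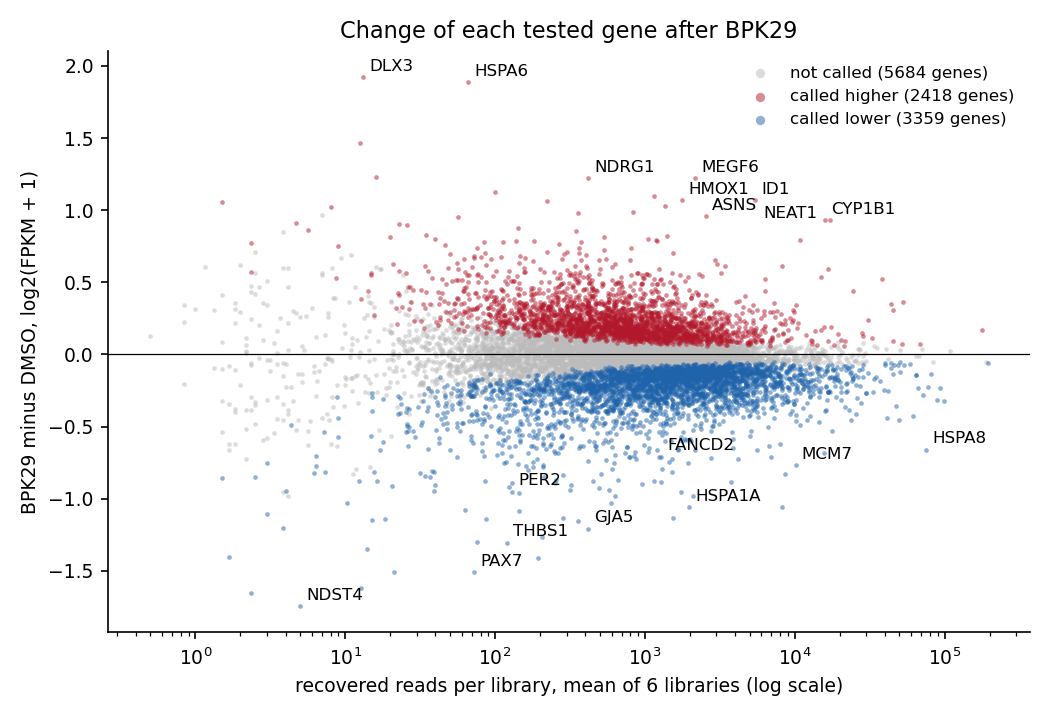
Change of each tested gene after BPK29 (log2(FPKM + 1), BPK29 minus DMSO) against its recovered reads per library on a log scale; each point is 1 of the 11444 genes with recovered reads, coloured by its call (2418 higher, 3359 lower). HSPA6 and DLX3 stand highest and NDST4 lowest, and HSPA8, labelled at the right, lies below 0.

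The genes of the proposed target and its partners moved little. NR0B1 itself had 2180.0, 2117 and 2121 normalised reads with DMSO and 2075, 1977 and 2043 with BPK29. All 3 BPK29 values lie below the DMSO values, and the difference of -0.07 (SE 0.024, limma adjusted p = 0.0275) is no longer called after rescaling to a common total (-0.00358, adjusted p = 0.913), with median-ratio scaling (-0.0532, adjusted p = 0.0902), on recovered reads (-0.053, adjusted p = 0.156), or without BPK29 replicate 2 (-0.0548), BPK29 replicate 3 (-0.078) or DMSO replicate 1 (-0.0605). NFE2L2 had 3657, 3764 and 3732 with DMSO and 3915, 3917 and 4068 with BPK29, a difference of 0.09 (SE 0.027, limma adjusted p = 0.0163), and it is not called without BPK29 replicate 3 (0.0743) or without DMSO replicate 1 (0.0809, adjusted p = 0.0559). KEAP1 differed by 0.12 (SE 0.042, limma adjusted p = 0.0404), and it stayed called only without DMSO replicate 1 (0.156) when 1 of these 6 libraries was left out; without each of the others it was 0.0815 to 0.136. Its call was also lost with no filter on low values (adjusted p = 0.0685) and with no variance trend (adjusted p = 0.0519). SNW1, a coregulator of transcription and splicing, had 3263, 3220.2 and 3201 with DMSO and 3238, 3203 and 3207 with BPK29, with overlapping groups (-0.01, adjusted p = 0.826), and on the common total it was called higher (0.0653, adjusted p = 0.0159). RBM45, an RNA-binding protein, changed most among these 5 genes: it fell from 457, 482 and 491 to 322, 366 and 353, by 0.38 on the log2 scale (SE 0.047, limma adjusted p = 0.000122), with no overlap of the groups.

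HSPA6, an inducible HSP70 chaperone that most unstressed cells hardly express, had 28.9, 20.2 and 23.7 normalised reads with DMSO and 103, 104 and 114 with BPK29, so every treated library was over 3 times the highest control; reads of this gene may be shared with near-identical copies. This is a 4.42-fold difference of means and 1.89 on the log2 scale (SE 0.088, limma adjusted p = 4.86e-07). NDRG1, a stress and hypoxia responsive gene, rose 2.4 fold, from 229, 248 and 253 to 589, 594 and 568 (log2 1.22, SE 0.042, adjusted p = 8.48e-08). ID1, an inhibitor of differentiation induced by bone morphogenetic proteins (BMPs), went from 3512, 3439.6 and 3448 to 7431, 7231 and 7227. HMOX1, the heme-degrading enzyme of the oxidative stress response, went from 1065, 1127 and 1149 to 2455, 2444 and 2362. For ID1 and HMOX1 the groups were far apart, with differences of 1.07 (SE 0.026) and 1.07 (SE 0.032) and adjusted p = 1.12e-08 and 3.3e-08.

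Further genes with the largest rises were MEGF6 (1.22), LRRC3 (1.13), AHNAK2 (1.10), SPHK1, which makes sphingosine 1-phosphate (1.06), and LCP1, an actin-bundling protein (1.03). SPHK1 had 129, 118 and 120.5 normalised reads with DMSO and 306, 341 and 319.9 with BPK29, a 2.63-fold difference. DLX3, a homeobox gene, showed the largest log2 difference (1.92, SE 0.33), but it rests on 12 recovered reads over the 3 DMSO libraries and 67 over the 3 BPK29 libraries. ZBTB46 rests on similarly few reads, with 17 in the DMSO and 58 in the BPK29 libraries (1.47, SE 0.26).

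THBS1, a matrix glycoprotein, fell from 185, 205 and 159 normalised reads to 62.2, 53.9 and 55.3, by 1.30 on the log2 scale (SE 0.075, limma adjusted p = 1.56e-06). BMP5, a BMP ligand, fell from 306, 295 and 333 to 112, 107 and 90.9, by 1.27 (SE 0.062, adjusted p = 5.77e-07). The 3 treated libraries were below every control library for both genes, at less than 40% of the lowest control. GJA5, a gap junction protein, fell from 580.5, 599 and 560.2 to 262, 242 and 246, and SPTLC3, a subunit of the enzyme that starts sphingolipid synthesis, from 503, 469.7 and 509 to 237, 219 and 195. Their differences were -1.21 (SE 0.036) and -1.15 (SE 0.066). OTOGL (-1.41), SNTB1 (-1.30), PAX7, a myogenic transcription factor (-1.51), and GFRA1, a co-receptor for GDNF (-1.51), fell as well. SSUH2 (60 and 16 reads in the 2 groups), KRT83 (63 and 21), CD36 (63 and 27) and NDST4 (25 and 5) were also among the largest falls, on few reads.

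**Figure D2:**
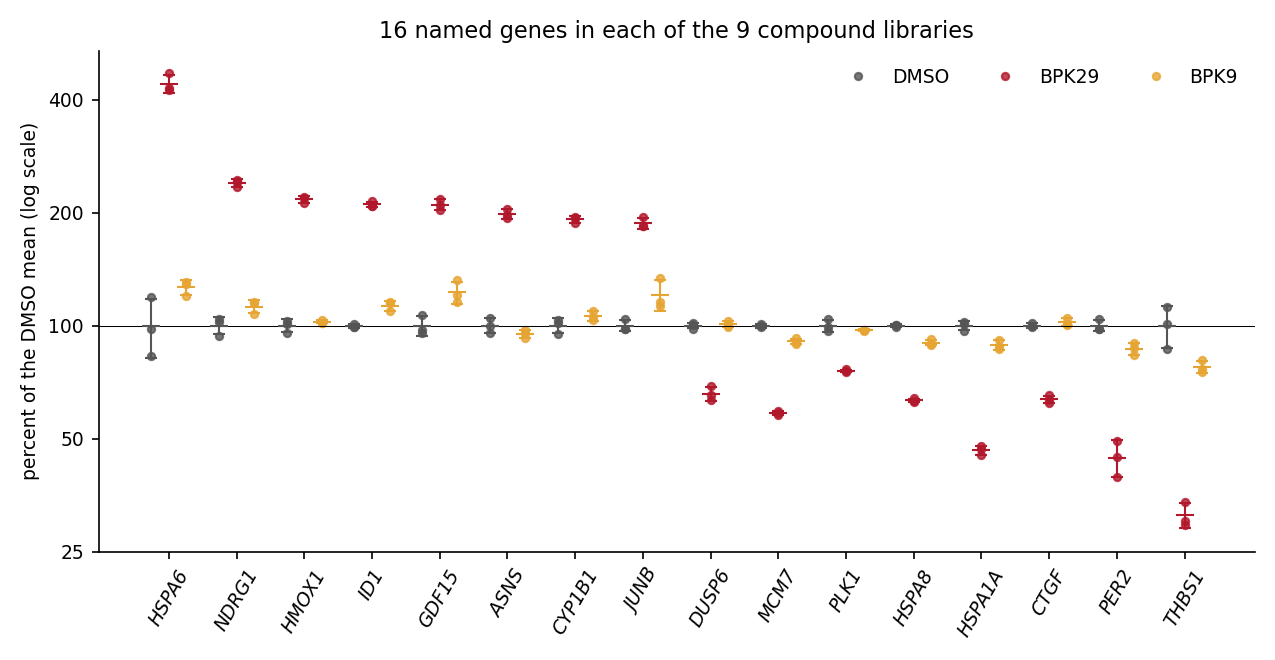
Percent of the DMSO mean, on a log scale, for 16 named genes in each DMSO, BPK29 and BPK9 library; points are libraries, the horizontal tick is the mean and the bars are the SD over 3 libraries. In each of the 16 genes the 3 BPK29 libraries lie outside the range of the DMSO libraries, which was a condition for naming the gene. The BPK9 libraries stay nearer to 100%.

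Most heat shock genes fell, while HSPA6, which is not on the list, rose. Of 24 listed chaperones and cochaperones of the cytosol and mitochondria, 18 were lower, 1 was higher (HSPB8, 0.23) and 5 were not called. Their median was -0.33 against -0.02 over all genes tested. HSPA1A, the main inducible HSP70, had 2618, 2757 and 2733 normalised reads with DMSO and 1223, 1293 and 1265 with BPK29, which is 1.06 lower on the log2 scale (SE 0.033, limma adjusted p = 3.95e-08). HSPA1B, a near-identical neighbour whose reads may be shared with HSPA1A, fell by 0.95 (SE 0.028). HSPA8, the constitutive HSP70, went from 91480.0, 92858 and 92452 to 58237, 57927 and 59068. Its fall of 0.66 (SE 0.019, adjusted p = 2.96e-08) separated the groups completely. SERPINH1, the collagen chaperone, fell by 0.66, and DNAJA1, an HSP40 cochaperone, by 0.62. Falls were smaller for HSP90AB1 (-0.32), DNAJB1 (-0.38), HSPH1 (-0.33), HSPD1 (-0.23) and BAG3 (-0.19), which were picked after their values were seen. HSF1, the factor that drives these genes, differed by -0.003 (SE 0.029, adjusted p = 0.943), and HSP90AA1 by -0.05 (SE 0.028, adjusted p = 0.18).

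The promoters of HSPA6, which rose, and of HSPA1A and HSPA8, which fell, are shown because they hold the same kind of motif while their RNA moved in opposite directions. Each is the 250 bases before the annotated start, 5′ to 3′ on the gene's strand, from RefSeq (GRCh38.p14). Capitals mark the heat shock element core, searched as GAANNTTC or TTCNNGAA, each its own reverse complement. HSPA6 heads the rule for printed promoters after DLX3, and the remaining promoters here and below were chosen after the values were seen.
HSPA6, chr1:161524290-161524539, plus strand: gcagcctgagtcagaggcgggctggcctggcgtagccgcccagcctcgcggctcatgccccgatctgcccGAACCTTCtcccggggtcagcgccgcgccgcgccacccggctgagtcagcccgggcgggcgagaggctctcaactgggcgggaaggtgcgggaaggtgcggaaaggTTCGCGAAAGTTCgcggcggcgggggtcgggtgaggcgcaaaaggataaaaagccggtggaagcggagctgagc
HSPA1A, chr6:31815293-31815542, plus strand: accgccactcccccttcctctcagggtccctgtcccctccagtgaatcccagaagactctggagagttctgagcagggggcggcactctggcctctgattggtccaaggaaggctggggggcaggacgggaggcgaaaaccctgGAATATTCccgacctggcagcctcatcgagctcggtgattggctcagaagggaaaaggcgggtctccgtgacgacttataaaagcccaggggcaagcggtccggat
HSPA8, chr11:123062137-123062386, minus strand: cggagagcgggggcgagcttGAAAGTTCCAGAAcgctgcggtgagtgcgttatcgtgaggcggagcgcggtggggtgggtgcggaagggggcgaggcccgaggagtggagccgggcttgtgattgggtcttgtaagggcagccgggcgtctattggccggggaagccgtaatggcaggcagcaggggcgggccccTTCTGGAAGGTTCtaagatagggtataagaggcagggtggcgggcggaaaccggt

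The window of HSPA6 holds 3 matches, that of HSPA1A 1 and that of HSPA8 4, and neighbouring matches overlap in HSPA6 and HSPA8. At least 1 match is found in 47.2% of the 36 windows of the tested heat shock genes, in 8.9% of the 12724 windows of all tested genes and in 11.6% of all 35116 windows in the RefSeq table. Among genes called at 1.5 fold or more, it is in 10.2% of 88 windows of higher genes and 13.3% of 255 windows of lower genes. A match describes the letters only.

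Most listed genes of DNA replication and mitosis fell, and none rose. Of 30 replication genes, 27 were lower, none were higher, and CDT1, POLE2 and UHRF1 were not called (median -0.20). Of 25 mitotic genes, 24 were lower, none were higher, and CENPA was not called (median -0.34). After rescaling to a common total, 21 of the 30 and 23 of the 25 were lower and again none were higher. MCM7, a subunit of the replicative helicase, had 12652, 12929 and 12701 normalised reads with DMSO and 7574, 7373 and 7446 with BPK29. The 3 treated libraries were near 60% of the controls (-0.77, SE 0.022, limma adjusted p = 2.64e-08). TYMS, which makes thymidylate, fell from 5646, 5756 and 5973 to 4374, 4390.4 and 4387, by 0.39 (SE 0.025). CDC45, RRM1 and GINS2, which act in helicase activation and nucleotide supply, fell by 0.38, 0.34 and 0.33.

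Among mitotic genes, FOXM1, a transcription factor of the late cell cycle, fell from 3731, 3485 and 3637 to 2624, 2491 and 2599 (-0.48, SE 0.032, limma adjusted p = 3.86e-06). The kinase PLK1 fell from 5707, 5431 and 5299 to 4188, 4149 and 4134 (-0.39, SE 0.029). The groups did not overlap for either gene. CDK1 (-0.44), AURKA (-0.42) and the kinesin KIF20A (-0.41) fell by similar amounts. Of 17 tested E2F factors and G1/S cyclins and kinases, 11 were lower and 2 higher (2 higher and 6 lower on the common total): CDK6 (-0.47), CCNA2 (-0.37), CDK2 (-0.28) and CCND3 (-0.26) fell, whereas cyclin E1 (CCNE1) rose from 343, 320.5 and 335 to 448, 491 and 472 (0.46, SE 0.044) and cyclin D1 (CCND1) by 0.16. In homologous recombination and the Fanconi pathway, 11 of 18 genes were lower and 1 was higher (RBBP8, 0.12). FANCD2, which marks crosslinked DNA, fell from 1543, 1641 and 1589 to 985, 957 and 952, by 0.71 (SE 0.029, adjusted p = 2.72e-07). The kinase inhibitors p21 (CDKN1A, 0.57, SE 0.042) and p27 (CDKN1B, 0.27, SE 0.032) rose and CDKN2D fell (-0.31).

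The promoters of MCM7 and PLK1 are shown with the motifs known from replication and mitotic genes in capitals: in MCM7 an E2F site, searched as TTTGGCGC or TTTCCCGC, and in PLK1 the cell cycle homology region, searched as TTTGAA, on both strands. Both are 250 bases before the start from RefSeq (GRCh38.p14), and MCM7 has 3 annotated starts, of which the 1 with a match is given.
MCM7, chr7:100101398-100101647, minus strand: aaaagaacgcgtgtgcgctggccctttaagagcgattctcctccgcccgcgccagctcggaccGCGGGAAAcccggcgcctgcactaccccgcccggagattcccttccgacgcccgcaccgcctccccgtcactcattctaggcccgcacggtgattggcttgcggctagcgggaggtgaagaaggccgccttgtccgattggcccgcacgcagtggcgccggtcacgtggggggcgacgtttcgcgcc
PLK1, chr16:23678639-23678888, plus strand: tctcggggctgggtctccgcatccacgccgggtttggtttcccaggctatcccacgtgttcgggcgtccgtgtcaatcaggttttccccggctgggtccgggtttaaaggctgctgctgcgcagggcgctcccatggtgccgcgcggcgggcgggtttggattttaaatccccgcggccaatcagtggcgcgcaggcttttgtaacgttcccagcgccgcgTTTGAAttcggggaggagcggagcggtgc

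The E2F letters occur in 34.3% of the 35 windows of replication genes, 9.09% of the 22 windows of mitotic genes, 2.97% of the windows of all tested genes and 1.93% of all windows. The TTTGAA letters occur in 50% of the mitotic windows, 2.86% of the replication windows, 9.09% of the windows of all tested genes and 13.3% of all windows. Most genes of both lists were lower, and members with and without a match were not compared.

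**Figure D3:**
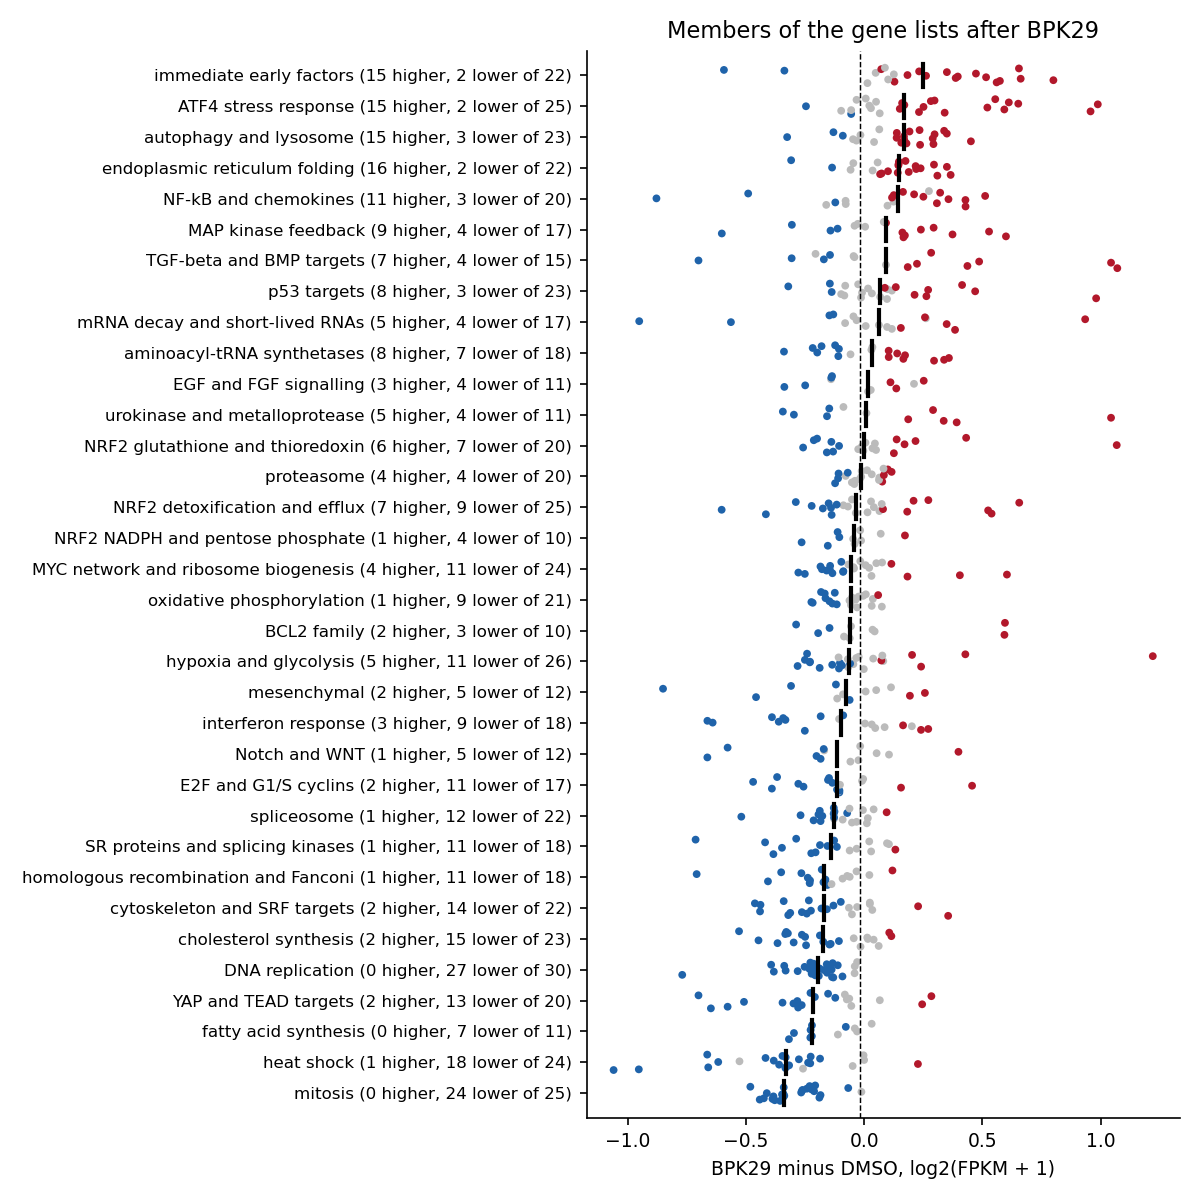
Change of each tested member of the 34 gene lists with at least 10 tested members (log2(FPKM + 1), BPK29 minus DMSO); red points were called higher, blue lower and grey not called, black bars are list medians and the dashed line is the median of all tested genes. Immediate early factors lie highest, at a median of 0.25, and heat shock and mitosis lowest.

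Most immediate early genes, which cells switch on within minutes of a stimulus, stood higher at 12 h. Of 22 tested, 15 were higher and 2 lower (median 0.25). JUNB, a subunit of AP-1, had 754, 709 and 713 normalised reads with DMSO and 1409, 1334 and 1333 with BPK29 (0.80, SE 0.057, limma adjusted p = 5.18e-06). JUN and FOSL1, also of AP-1, rose by 0.57 and 0.56, ZFP36, which destabilises inflammatory mRNAs, by 0.65 and IER2 by 0.52. FOS had 0.01 (SE 0.082, adjusted p = 0.902) and was not called, and the nuclear receptors NR4A3 (-0.59) and NR4A2 (-0.34) were the members that fell. Of 17 feedback regulators of MAP kinases, 9 were higher and 4 lower (10 higher and 2 lower on the common total). DUSP6, the ERK phosphatase, fell from 1672, 1618 and 1651 to 1043, 1075 and 1136 (-0.60, SE 0.031, adjusted p = 8.6e-07), and the transcription factor ETV4 by 0.31. DUSP2 rose from 289, 328 and 306 to 513, 544 and 480.1 (0.60, SE 0.060), DUSP8 by 0.53 and DUSP5 by 0.37, so phosphatases of this family moved both ways. In the EGF and FGF list 3 of 11 tested genes were higher and 4 lower (4 and 2 on the common total), beside 21.1% and 29.3% of all genes. The growth factor receptors EGFR (-0.34) and ERBB2 (-0.25) fell and FGFR3 (0.25) rose.

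Most amino acid response genes rose. The list of targets of ATF4, the factor translated when amino acids are short or proteins misfold, had 15 of 25 tested members higher and 2 lower (median 0.17). ASNS, asparagine synthetase, had 1620.5, 1693 and 1778 normalised reads with DMSO and 3290.2, 3478 and 3346 with BPK29. ALDH1L2, of mitochondrial folate metabolism, went from 531, 514 and 566 to 1039, 1169 and 1137. Both were close to double the control in every library (0.96 and 0.99, SE 0.038 and 0.047, limma adjusted p = 2.24e-07 and 5.39e-07). PCK2 (0.65), STC2 (0.61), CEBPB (0.59), CBS (0.55) and PSAT1 of serine synthesis (0.52) rose as well. ATF4's own mRNA differed by -0.06 (adjusted p = 0.0406) and was not called on recovered reads (-0.03, adjusted p = 0.225), DDIT3 (CHOP) was not called (0.07, adjusted p = 0.287), and neither was the cystine carrier SLC7A11 (0.05, adjusted p = 0.113). CHAC1, NUPR1 and FGF21 did not pass the filter on low values and were not tested. The ASNS promoter is shown for its composite element TGATGNAA, on which ATF4 is known to act, in capitals, over 250 bases before 1 of its 2 annotated starts (RefSeq, GRCh38.p14).
ASNS, chr7:97872409-97872658, minus strand: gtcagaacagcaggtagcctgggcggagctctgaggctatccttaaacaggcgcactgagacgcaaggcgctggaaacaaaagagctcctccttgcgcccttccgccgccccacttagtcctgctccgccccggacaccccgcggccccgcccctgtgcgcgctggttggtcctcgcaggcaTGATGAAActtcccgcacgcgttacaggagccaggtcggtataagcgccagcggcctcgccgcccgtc

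The TGATGNAA letters are in 6.06% of the 33 windows of the ATF4 list, against 1.67% of the windows of all tested genes and 3.14% of all windows, so few members hold them this close to the start.

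Most chaperones of the endoplasmic reticulum rose, while most of the cytosol fell. Of 22 folding genes of this compartment, 16 were higher and 2 lower (median 0.15; 18 higher and 1 lower on the common total). HSPA5 (BiP), the HSP70 of the endoplasmic reticulum, had 40415, 40316 and 40245 normalised reads with DMSO and 50583, 49537 and 49789 with BPK29 (0.31, SE 0.019, limma adjusted p = 2.46e-06). HSP90B1, its HSP90, rose from 45707, 45468 and 45762 to 58630.4, 58687 and 59296 (0.37, SE 0.019). The groups did not overlap for either, while the cytosolic counterparts HSPA8 and HSP90AB1 fell. HERPUD1 (0.35), SEL1L (0.29) and DNAJC3 (0.24) rose, CREB3L2 (-0.31) and DNAJC10 (-0.14) fell, and XBP1 was not called (-0.05, adjusted p = 0.251). Of 23 genes of autophagy and lysosomes, 15 were higher and 3 lower (16 higher and 1 lower on the common total), with ULK1, the kinase that starts autophagy (0.45), the protease CTSL (listed as CTSL1, 0.35), CTSD (0.30), MAP1LC3B (0.29) and the regulator TFEB (0.29) among those higher.

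Targets of NRF2, which is already active in these cells, moved both ways, beside 21.1% higher and 29.3% lower among all tested genes. List medians were 0.0007 for glutathione and thioredoxin, -0.04 for detoxification and -0.04 for NADPH, against -0.02 over all genes. Whether these lists differ from all genes was not tested. In the glutathione and thioredoxin list, 6 of 20 tested were higher and 7 lower (10 and 4 after rescaling to a common total). HMOX1, the heme-degrading enzyme, and BLVRB, a biliverdin reductase, rose by 1.07 and 0.43, and GSS by 0.22. SRXN1 fell from 35816, 36856 and 36324 to 30205, 30901 and 29948 (-0.26, SE 0.021, limma adjusted p = 1.15e-05), and NQO1, a classical NRF2 target, from 66998, 67440.0 and 67356 to 61636, 61024 and 60597 (-0.14, SE 0.021). TXNRD2 fell by 0.21, and GCLM (-0.16) and GCLC (0.13), the 2 subunits of the enzyme limiting glutathione synthesis, moved apart. In the detoxification list 7 of 25 were higher and 9 lower (10 and 7 on the common total). The exporter ABCC3 (0.66), AKR1C1 (0.54), whose reads may be shared with its close paralogs, and ALDH3A1 (0.52) rose, and ALDH1A1 (-0.60) and AKR1B10 (-0.42) fell. In the NADPH list 1 of 10 was higher and 4 lower (2 higher and 2 lower on the common total), with TKT at -0.26 and IDH1 at -0.11; IDH1 is not called on the common total (-0.035, adjusted p = 0.325).

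The 3 tested genes best known as targets of the aryl hydrocarbon receptor, CYP1B1, AHRR and TIPARP, rose. CYP1B1, a cytochrome that this receptor induces, had 10231, 10947 and 11159.8 normalised reads with DMSO and 20908, 20954 and 20234 with BPK29 (0.93, SE 0.035, limma adjusted p = 1.66e-07). AHRR, its repressor, rose from 240.2, 205 and 216 to 363, 369 and 416 (0.71, SE 0.065), and TIPARP from 931, 1010.1 and 956 to 1258, 1286 and 1252 (0.37, SE 0.037). For each the lowest treated library was above the highest control. The receptor's own mRNA (AHR) was not called (0.02, adjusted p = 0.667), its partner ARNT was 0.19 higher, and of the 7 tested genes of the list, which counts AHR, ARNT and NFE2L2 beside targets, 5 were higher and 1 (NEBL, -0.33) lower. CYP1A1 and CYP1A2 did not pass the filter. The core letters of the xenobiotic response element, GCGTG on both strands, are in 35.7% of the 14 promoter windows of this list, against 44.1% of the windows of all tested genes and 32.2% of all windows. Of 6 metallothionein and zinc genes tested, the zinc exporter SLC30A1 rose (0.37) and 3 fell (2 higher and 3 lower on the common total), among them MT2A (-0.23), a family whose near-identical copies may share reads.

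More lipid synthesis genes fell than rose, beside 29.3% lower and 21.1% higher among all tested genes. Of 23 tested genes of cholesterol synthesis and uptake, 15 were lower and 2 higher (median -0.17; 4 higher and 11 lower on the common total). STARD4, a sterol carrier, fell from 1243, 1278 and 1277 to 855, 906 and 857 (-0.53, SE 0.032, limma adjusted p = 2.19e-06), LSS, which closes the sterol rings, by 0.45, IDI1 by 0.37 and ACAT2 by 0.33. HMGCS1, of an early step of the pathway, was not called (-0.02, adjusted p = 0.686), and SREBF2 (0.11) and SC5D (listed as SC5DL, 0.11) were higher. Of 11 genes of fatty acid synthesis 7 were lower and none higher (median -0.22; 6 lower on the common total). SREBF1, their regulator, fell by 0.32, SCD, which desaturates fatty acids, from 15776, 16041 and 16022 to 13117, 12861 and 12843 (-0.30, SE 0.021), ACACA by 0.23 and ACLY by 0.22. In glycolysis and hypoxia 5 of 26 genes were higher and 11 lower (8 and 6 on the common total), with LDHA (-0.25), PFKP (-0.28) and PDK1 (-0.24) lower and NDRG1 and the demethylase KDM3A (0.43) higher.

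Lists of TGF-beta, YAP and cytoskeletal genes held members that rose and members that fell, beside 21.1% higher and 29.3% lower among all genes. Of 15 tested genes of TGF-beta and BMP signalling 7 were higher and 4 lower. ID1 and ID3, direct BMP targets, rose (1.07 and 0.44), as did the ligand TGFB1 (0.49), while the ligand TGFB2 fell from 974, 1086 and 1094 to 674, 606 and 643 (-0.70, SE 0.049, limma adjusted p = 4.94e-06). Of 20 targets of YAP and TEAD, the factors that read cell contact and tension, 13 were lower and 2 higher (median -0.22; 3 higher and 11 lower on the common total). CTGF, the best known of them, fell from 4669.6, 4793 and 4697 to 3078, 2938 and 2998 (-0.65, SE 0.026), with AJUBA (-0.35) and LATS2 (-0.30), while NT5E (0.28) and AXL (0.25) rose. Of 22 genes of actin and tubulin 14 were lower and 2 higher (4 higher and 12 lower on the common total), with TPM1 (-0.44), TUBB2B (-0.46), TUBB (-0.44) and TUBA1A (-0.34) falling and ACTA2 (0.35) rising; tubulin paralogs may share reads. Of 12 mesenchymal genes 2 were higher, among them ZEB1 (0.19), and 5 lower (3 and 3 on the common total), among them COL5A1 (-0.85), FN1 (-0.46) and LOXL2 (-0.31). Of 5 tested fibroblast and endothelial markers 1 was higher (ACTA2) and 1 lower (COL3A1, -0.74). The Notch ligand JAG1 fell from 593, 627 and 569.8 to 357, 302 and 363 (-0.66, SE 0.060) and the WNT antagonist DKK1 by 0.58. The epithelial genes CLDN1 (-0.40), KRT19 (-0.36), KRT18 (-0.22) and KRT8 (-0.22) fell too, with 5 of 8 tested lower and none higher (1 higher on the common total).

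Among inflammatory genes, NF-kB targets were more often higher and interferon genes more often lower. Of all tested genes, 21.1% were higher and 29.3% lower. Of 20 tested NF-kB targets 11 were higher and 3 lower (median 0.14). NFKBIA, the inhibitor that NF-kB induces, rose from 816, 790.2 and 827 to 1081, 1128 and 1122 (0.43, SE 0.029, limma adjusted p = 4.13e-06), CXCL3 by 0.51 and RELB by 0.43. IL6 fell from 610.5, 652 and 608 to 434, 387 and 476 (-0.49, SE 0.062) and the adhesion molecule ICAM1 by 0.88, the latter on 6.51 to 20.8 normalised reads per library. Of 18 tested interferon genes 9 were lower and 3 higher, with OAS3 (-0.66), IFI44 (-0.64), OAS1 (-0.36), PSMB9 (-0.39) and PSMB8 (-0.34) lower and IRF1 (0.27), STAT2 (0.24) and IFIT3 (0.16) higher. Of 11 tested genes of the urokinase and metalloprotease list 5 were higher and 4 lower (median 0.009, with 6 and 4 on the common total). PLAU (0.39), its receptor PLAUR (0.34) and, from the metalloprotease part, TIMP1 (0.29) rose, and SERPINB2 fell (-0.30).

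Among p53 targets 8 of 23 tested were higher and 3 lower, beside 21.1% and 29.3% of all genes. On the common total 14 were higher and 2 lower, beside 3851 and 2201 of all 11464 genes. GDF15, a stress cytokine, rose from 246, 220.1 and 224 to 468, 481 and 500.1 (0.98, SE 0.053, limma adjusted p = 1.12e-06), with PLK3 (0.47) and PHLDA3 (0.41), while DDB2 of DNA repair fell (-0.32). MCL1, a short-lived protector from apoptosis, rose from 13087, 13027 and 13277 to 19794, 19794 and 19884 (0.59, SE 0.024, adjusted p = 2.58e-07), and BOK of the same BCL2 family rose by 0.60. BAD (-0.29) and BCL2L2 (-0.19) fell, as did BCL2L11 (-0.15), whose call is lost on recovered reads (-0.136, adjusted p = 0.0775), on the common total (-0.0807, adjusted p = 0.158) and without BPK29 replicate 3 (-0.113) or DMSO replicate 1 (-0.122). MYC rose by 0.18 (SE 0.022) and MXI1, of its antagonists, by 0.60; nucleolar NPM1 fell by 0.28.

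RNA processing genes fell more often than they rose, as did all tested genes (29.3% lower and 21.1% higher). Of 18 SR proteins and splicing kinases 11 were lower and 1 (SRSF6, 0.13) higher (4 higher and 9 lower on the common total), and of 22 spliceosome genes 12 were lower and 1 (BUD31, 0.09) higher (5 higher and 8 lower on the common total). HNRNPDL (listed as HNRPDL) fell from 8697, 8565 and 8602 to 5262, 5147 and 5343 (-0.71, SE 0.023, limma adjusted p = 5.59e-08), SRSF1 by 0.38, CLK3 by 0.42 and the U1 protein SNRPA by 0.52. NEAT1, the long RNA that builds paraspeckles, rose from 13531, 11365 and 10342 to 22438, 21940.0 and 22677 (0.93, SE 0.090, adjusted p = 2.82e-05). The 3 treated libraries lay above all controls. The circadian repressors PER2 and PER1 fell, PER2 from 177, 177 and 188 to 80.4, 89.2 and 71.2 (-0.95, SE 0.060) and PER1 by 0.56, and CRY1 fell by 0.90.

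Remaining lists moved less or in both directions, beside 21.1% higher and 29.3% lower among all tested genes. Of 21 genes of oxidative phosphorylation 9 were lower and 1 higher (3 higher and 7 lower on the common total), led by SDHA (-0.22) and NDUFV1 (-0.22). Among 18 aminoacyl-tRNA synthetases, 8 were higher and 7 lower (10 and 4 on the common total): GARS (0.36), CARS (0.34) and AARS (0.30) rose, VARS (-0.34) and RARS (-0.22) fell. The proteasome list had 4 higher and 4 lower of 20 (10 and 0 on the common total), none by more than 0.12. In the list of mRNA decay and short-lived RNAs, which holds NEAT1 and the PER genes, 5 of 17 were higher, among them the antiproliferative BTG1 (0.38), and 4 lower (9 higher and 2 lower on the common total). Of 24 genes of the MYC network and ribosome biogenesis 4 were higher and 11 lower (7 higher and 8 lower on the common total). Of 8 tested neuroendocrine genes 1 (VGF) was higher and 5 were lower (2 higher and 3 lower on the common total), with CPLX2, which acts in vesicle release, at -0.87.

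BPK9 at the same dose and time left the transcriptome close to DMSO in the same fit. Of 11461 genes, 1 was called (0.00873%), SNORA71A, lower by 1.31 (SE 0.090, limma adjusted p = 8.47e-04), a small nucleolar RNA that polyadenylated libraries measure poorly. At an unadjusted p under 0.05 there were 1725 genes (15.1%), and limma on recovered reads (voom) called 136 higher and 117 lower, so the count for BPK9 depends on the model.

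Set directly against BPK9, BPK29 had 2258 genes higher (19.7%) and 3121 lower (27.2%). Of the 2418 genes called higher than DMSO, 1869 were also higher than BPK9 and 1 lower; of the 3359 called lower, 2727 were also lower than BPK9 and 2 higher. These comparisons share the BPK29 libraries, so such counts do not stand as separate evidence. Of the genes past 1.5 fold against DMSO, 89 of 96 higher and 165 of 175 lower genes were called the same way against BPK9. HSPA6 was 1.61 above BPK9 (SE 0.088, limma adjusted p = 1.53e-06), with 31.4, 29.1 and 31.7 normalised reads in the BPK9 libraries. NEAT1 was 1.07 above (SE 0.090) and NDRG1 1.06 (SE 0.042), while GJA5, at 617, 621 and 592 with BPK9, was -1.28 (SE 0.036), SPTLC3 -1.24 (SE 0.066) and BMP5 -1.15 (SE 0.062). CACNG8, a calcium channel subunit on 164 and 289 reads in the DMSO and BPK29 libraries, also led the difference (1.08, SE 0.15).

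List medians of both compounds are set side by side here, both against the same DMSO libraries. Mitosis genes had a median of -0.34 with BPK29 and -0.04 with BPK9, and 24 of 25 were lower with BPK29 than with BPK9. For the ATF4 list the medians were 0.17 and -0.01, with 17 of 25 higher than BPK9 and 1 lower. ASNS had 1624, 1651 and 1569 with BPK9, overlapping the DMSO libraries, and MCM7 had 11801, 11412 and 11528, between the groups. Heat shock medians were -0.33 and -0.07; HSPA1A was at 2369.6, 2347 and 2478 with BPK9 (-0.17 against DMSO, SE 0.033, adjusted p = 0.115) and HSPA8 at 82082, 82579 and 84796 (-0.15, adjusted p = 0.059), where every BPK9 library of both genes lay between the DMSO and the BPK29 libraries, though neither was called. For immediate early factors the medians were 0.25 and 0.07, and 14 of 22 were higher with BPK29 than with BPK9.

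**Figure D4:**
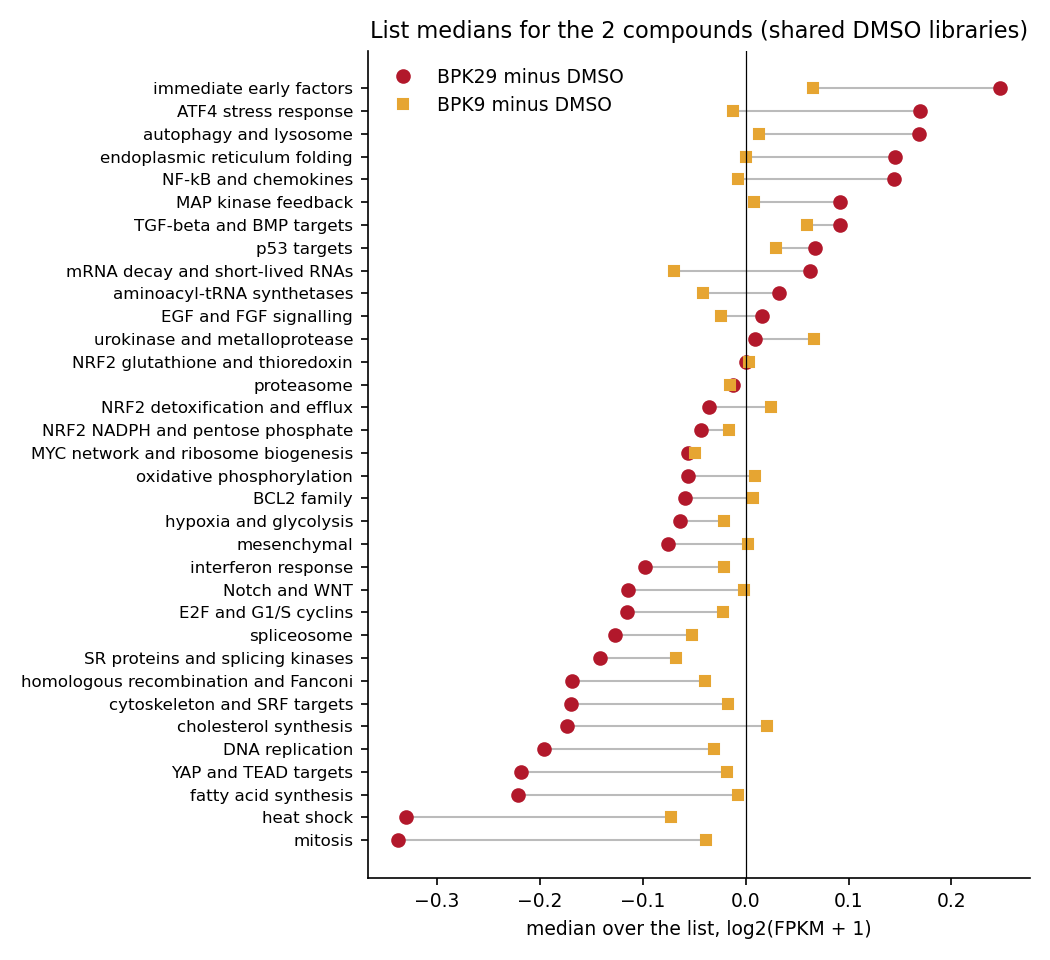
Median change of 34 gene lists against DMSO (log2(FPKM + 1)) for BPK29, circles, and BPK9, squares; both use the same 3 DMSO libraries. BPK9 medians run from -0.07 to 0.07, while BPK29 medians run from -0.34 for mitosis to 0.25 for immediate early factors.

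Changes after BPK29 are set beside those after hairpin knockdown of NR0B1, its proposed target, which has its own control libraries and was sampled at 72 h rather than 12 h. NR0B1 stood at 40.03%, 38.4% and 36.2% of the shGFP mean in the 3 shNR0B1 libraries (-1.34, SE 0.041, limma adjusted p = 1.67e-11). Of 10929 genes tested in both, the knockdown had 32.7% higher and 38.7% lower. Among the 2350 genes called higher with BPK29, 40.6% were higher and 30.7% lower in the knockdown. Among the 3272 called lower, 49.8% were lower and 26.2% higher. The 953 genes higher in both are 40.6% of the BPK29 list and 26.7% of the knockdown list, and the 1629 lower in both are 49.8% and 38.5%. Across the 10929 genes the 2 changes had Pearson r of 0.127 and Spearman rho of 0.154, given as a description, since genes are not independent replicates. A test of the overlap was not made. Gene lengths differ between the 2 sets of columns, so the added 1 FPKM shrinks log2 differences unequally in the 2 fits.

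Genes that moved the same way in both, chosen by the size of the smaller change, included ID1 (1.07 with BPK29, 0.73 in the knockdown), GPRC5C (0.88 and 0.91), CALCOCO1 (0.85 and 0.85), OSBPL5 (0.79 and 1.02) and SMKR1 (0.78 and 0.77) on the higher side. On the lower side were CPA4, a carboxypeptidase (-1.14 and -2.21), PCSK1, a prohormone convertase (-0.82 and -1.08), ANKRD2 (-1.14 and -0.81), the collagen COL2A1 (-0.77 and -1.21), CRY1 (-0.90 and -0.76) and ANXA3 (-0.73 and -1.12). CPA4 had 434, 457 and 383 normalised reads with DMSO and 142, 147 and 135 with BPK29, with 382, 389.6 and 397 with BPK9. All 11 of these genes were called in both fits.

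Of all 10929 genes tested in both fits, 1629 were called lower in both. Beside this stand 26 of 30 replication genes, 21 of 25 mitotic genes, 14 of 22 heat shock genes and 10 of 20 YAP targets. In the knockdown alone, 29 of 30, 22 of 25, 15 of 22 and 15 of 20 were lower. Most members were also lower with BPK29 alone, so the joint counts largely follow from the single counts and are no separate sign of agreement. Other genes went opposite ways. HSPA6 rose with BPK29 and was 1.09 lower in the knockdown (SE 0.074), LCP1 was 1.03 and -1.21, PLAU 0.39 and -2.22, MCL1 0.59 and -1.08, and HMOX1 1.07 and -0.47. Of 22 immediate early factors 10 were higher with BPK29 and lower in the knockdown, and 3 were higher in both. Another 1 was lower with BPK29 and higher in the knockdown. Over all 10929 genes these 3 classes held 721, 953 and 857 genes. COL3A1 and COL5A1, lower with BPK29, had 0.88 and 0.53 in the knockdown. The secretory granule gene CHGA was -0.26 with BPK29 and 2.41 in the knockdown, and VGF 0.26 and -2.83.

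**Figure D5:**
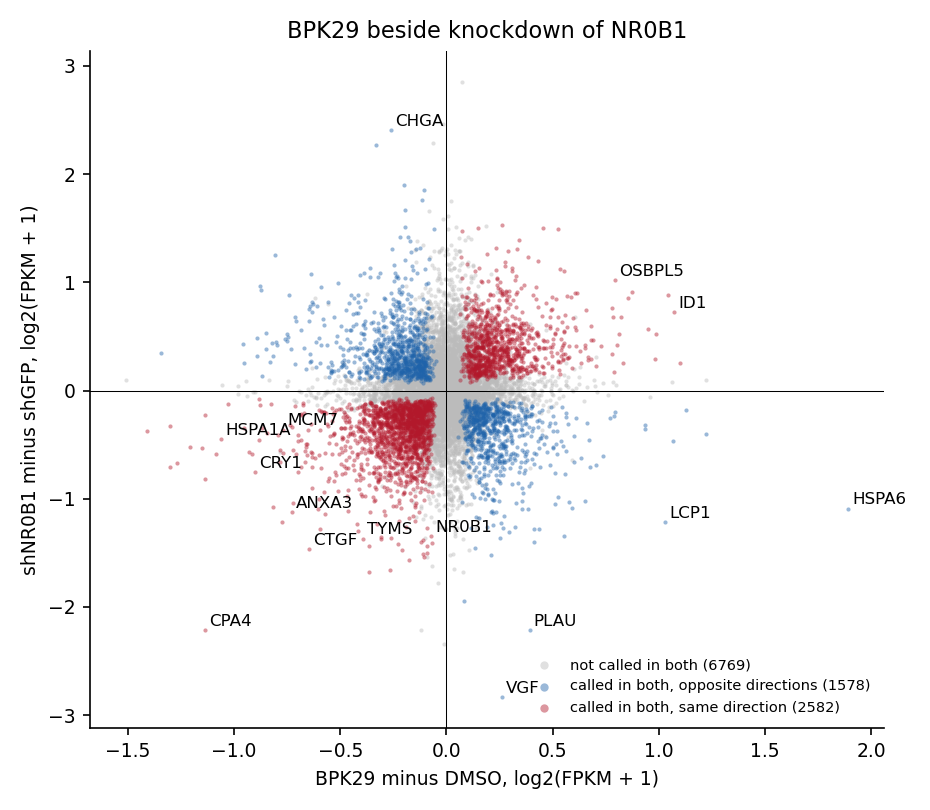
Change with BPK29 against DMSO (x axis) and with shNR0B1 against shGFP (y axis), both in log2(FPKM + 1), for the 10929 genes tested in both; red points were called in both in the same direction (2582), blue in opposite directions (1578) and grey not in both. CPA4 is the lowest red point at the lower left, and HSPA6 lies farthest to the right, below 0 on the y axis.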

How the data were processed

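The values are FPKM in a table the authors deposited for all RNA libraries, with gene symbols as given; for 28 symbols the compound columns are empty. The submitters' processing notes name STAR, featureCounts, DESeq2 and build hg19. Versions, annotation, filters and the strand setting were not found in the labels or headers, so overlapping antisense genes cannot be told apart. Groups follow the labels. Tested genes reached a minimum of 1 FPKM in 3 or more of the 9 compound libraries (BPK29, BPK9, DMSO). They were fitted together with limma 3.58.1 (R 4.3.3) on log2(FPKM + 1), letting the variance follow the mean level, with calls at an adjusted p under 0.05 (Benjamini-Hochberg); the 12 H460 knockdown libraries were fitted likewise. Lengths that do not match leave plain FPKM ratios as they are but shift which genes pass the minimum. They also set how far the added 1 FPKM shrinks a log2 difference. The size of such differences is therefore not strictly comparable between the compound and knockdown columns. Recovery of reads and the fits were tested on simulated data. Depth was 19108611 to 24866717 reads per compound library.

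The labels define the samples; this comparison and the 44 gene lists were chosen for description with earlier results of these data known. Named genes are NR0B1, NFE2L2, SNW1, RBM45 and KEAP1; the 12 largest calls each way (groups not overlapping, higher mean at least 5 FPKM); up to 5 called members per list; the 6 largest differences each way from BPK9; and the 6 each way called alike in the NR0B1 knockdown. Called list members taken by this rule met the same conditions on overlap and level, so their separation from DMSO was fixed by the choice. Other list members, such as those not called or moving against their list, were picked after their values were seen. Some genes that the rule names are not reported here. RefSeq promoters were found for 170 of 222 genes named by the rule. Peaks of the chromatin immunoprecipitation were not used here. Alternatives were a pseudocount of 0.1, no filter, a minimum of 5 FPKM, a common FPKM total, median-ratio scaling, only the compared groups, no variance trend, a replicate block, each library left out in turn, and recovered reads with voom.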

Additional observations from a re-analysis of the deposited data

How the results depend on the processing

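After rescaling to a common FPKM total, 3851 genes were called higher and 2201 lower with BPK29 than with DMSO, and 3448 higher than with BPK9; other settings kept the counts without a fold limit within 1.5 times the main ones for both comparisons. Genes called at 1.5 fold or more against DMSO, 96 higher and 175 lower, numbered 160 and 132 on the common total and 233 and 263 on recovered reads. For BPK9 against DMSO, genes called higher numbered 1 with no filter, 8 at a minimum of 5 FPKM, 6 on the common total and 136 on recovered reads, and genes called lower numbered 5 at 5 FPKM, 3 on the common total, 2 with only the compared groups and 117 on recovered reads; the cause was not tested. Leaving out 1 library gave 2031 to 2166 higher and 2966 to 3078 lower for BPK29 against DMSO, 1861 to 2047 and 2731 to 2890 against BPK9, 0 to 1 and 1 for BPK9 against DMSO, and 3654 to 3957 and 4122 to 4340 for the knockdown. SNW1, not called in the main setting, turned to 0.0653 on the common total, where it was called (adjusted p = 0.0159), to 0.0154 with median-ratio scaling, 0.0162 on recovered reads, and ranged from -0.0116 to 0.00233 with 1 library left out. Of 3322 alternative values of the 222 genes named by the rule, 3277 kept direction and call, 38 lost the call, 3 gained it and 4 turned direction. Most of these genes were picked as large calls in the same libraries, so this stability is largely fixed by the choice. NR0B1, NFE2L2 and KEAP1, named whatever their change, each lost the call in some settings.

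Replicate numbers are shared between the groups, and deviations of same-numbered DMSO and BPK29 libraries correlated at 0.0721, 0.0053 and -0.0346. No shared deviation is visible, but such values cannot tell whether same-numbered libraries were handled together. With the replicate block, 2448 genes were higher and 3394 lower.

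Genes on few reads, such as NDST4 and DLX3, have wide errors.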
